A study of Mus musculus with 18 samples.

Results

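The response of TrIP knockout CD8 T cells to the gp33 peptide was read from 6 of the 18 RNA libraries of the study, 3 labelled KO and cultured without peptide and 3 labelled KO and cultured with gp33. They were chosen by their column names, which give genotype, stimulation and inhibitor, and the genotype is given here as deposited. All cells came from spleens of P14 mice, which carry a transgenic T cell receptor for the gp33 peptide of lymphocytic choriomeningitis virus. Whole spleen-cell cultures were kept for 24 h with 50 U/ml of recombinant IL-2 and 2 ng/ml of IL-12, with or without gp33 at 100 ng/ml, and CD8 T cells were sorted afterwards for polyA RNA sequencing. The treatment protocol names gp33 for every sample, so the treated groups follow titles and treatment fields instead. The unstimulated cells had also seen both cytokines for 24 h. The KO mice carried a CD8-specific deletion of TrIP, the product of Pik3ip1, and the driver of the deletion is not given in the sources used here. Wild-type (WT) libraries of the same 2 treatments, 3 of each, serve for comparison, and the 6 libraries with gp33 and 10 µM IC87114, a PI3K delta inhibitor, entered only the shared estimate of the spread. The labels do not say that replicates came from separate mice, so p-values measure the spread between these libraries, which may be technical.

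When a naive CD8 T cell meets its antigen, signals from the T cell receptor drive NFAT, AP-1 and NF-kappaB into the nucleus, and the cell leaves quiescence, enlarges, switches its metabolism and divides. In the resting cell, FOXO1 and KLF2 keep up homing and survival genes such as S1pr1 and Il7r, and PI3K signalling shuts FOXO1 out of the nucleus. TrIP is a transmembrane protein that restrains PI3K, and its gene is itself turned down in activated T cells.

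The depth recovered from the values, in units of 1e6 reads, was 17 to 21.4 in the unstimulated and 20.6 to 22.7 in the stimulated KO libraries. The deposited values are log2 of a normalized value plus 1, and a normalized value behaves as reads divided by the genomic span of the gene, so levels are compared within a gene and never between genes. The test took the 10257 genes that reached a value of 1 in 3 or more of the 18 libraries, of which 3352 were processed pseudogenes. Libraries correlated with their own group at 0.982 to 0.984 without peptide and 0.993 to 0.994 with gp33, and with the other treatment at 0.876 to 0.893. Unstimulated replicate 2 stood apart in Ifng, Ccl3 and Ccl4, and unstimulated replicate 3 in the immunoglobulin gene Igkc. Beside the results, Ifng, Ccl3, Ccl4 and the chemokine and mitosis lists are also given without single libraries, and the B cell marker sum without Igkc. Mitochondrially encoded genes took 2.99 to 3.24% of reads without peptide and 1.64 to 1.82% with gp33.

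Pik3ip1 (ENSMUSG00000034614), the gene named by the knockout label, did not follow that label. Its normalized value in the libraries labelled KO was 74.6, 74.9 and 78.9 without peptide and 1.53, 1.67 and 1.63 with gp33. In WT it was 31.0, 33.4 and 28.5 without peptide and 0.863, 0.773 and 0.655 with gp33. Each KO library was above each WT library of the same treatment, while gp33 lowered the gene in both genotypes without overlap. The log2 fold change in the KO libraries was -4.89 (SE 0.076, adjusted p = 9.6e-16), against -4.18 in WT. A count over the whole gene does not show whether the deleted exons were read, so this does not check the deletion, and all directions below are those of the libraries as labelled. The 300 bases around its RefSeq start (GRCm38.p6, chr11:3330481-3330780, plus strand) are shown because the gene fell so far; capitals mark the NFAT core GGAAAA, searched on both strands.

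Pik3ip1: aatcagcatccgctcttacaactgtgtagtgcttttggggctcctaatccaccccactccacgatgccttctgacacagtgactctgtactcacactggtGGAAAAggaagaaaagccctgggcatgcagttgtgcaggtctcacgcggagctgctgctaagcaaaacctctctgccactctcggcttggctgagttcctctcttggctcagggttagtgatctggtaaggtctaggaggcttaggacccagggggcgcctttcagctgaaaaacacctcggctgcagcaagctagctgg

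No FOXO letters (TGTTTAC) were in this window. Windows of this length held the NFAT core in 23.6% and the FOXO motif in 3.55% of all 27025 promoters of the table, and in 5 and 4 of the 24 windows of the quiescence list described below.

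gp33 changed most of the genes tested. Of the 10257 genes, 7025 (68.5%) passed an adjusted p of 0.05 (Benjamini-Hochberg) and are called, 4220 higher (41.1%) and 2805 lower (27.3%). With a log2 fold change of at least 1 as well, 1742 genes (17%) were higher and 1064 (10.4%) lower, and the 3 libraries of a treatment all lay to one side of the other 3 in 7642 genes (74.5%). The median log2 fold change of all genes was 0.20, with quartiles of -0.40 and 0.74. Median-of-ratios scaling moved that median to 0.01 and turned 4220 higher and 2805 lower calls into 3290 and 3426, so small changes depend on the scaling. Lists of genes are therefore described by their counts and medians beside these shares. A gene silent without peptide passes the filter only through libraries with gp33, so counts of rises in lists with such genes are descriptions.

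**Figure D1:**
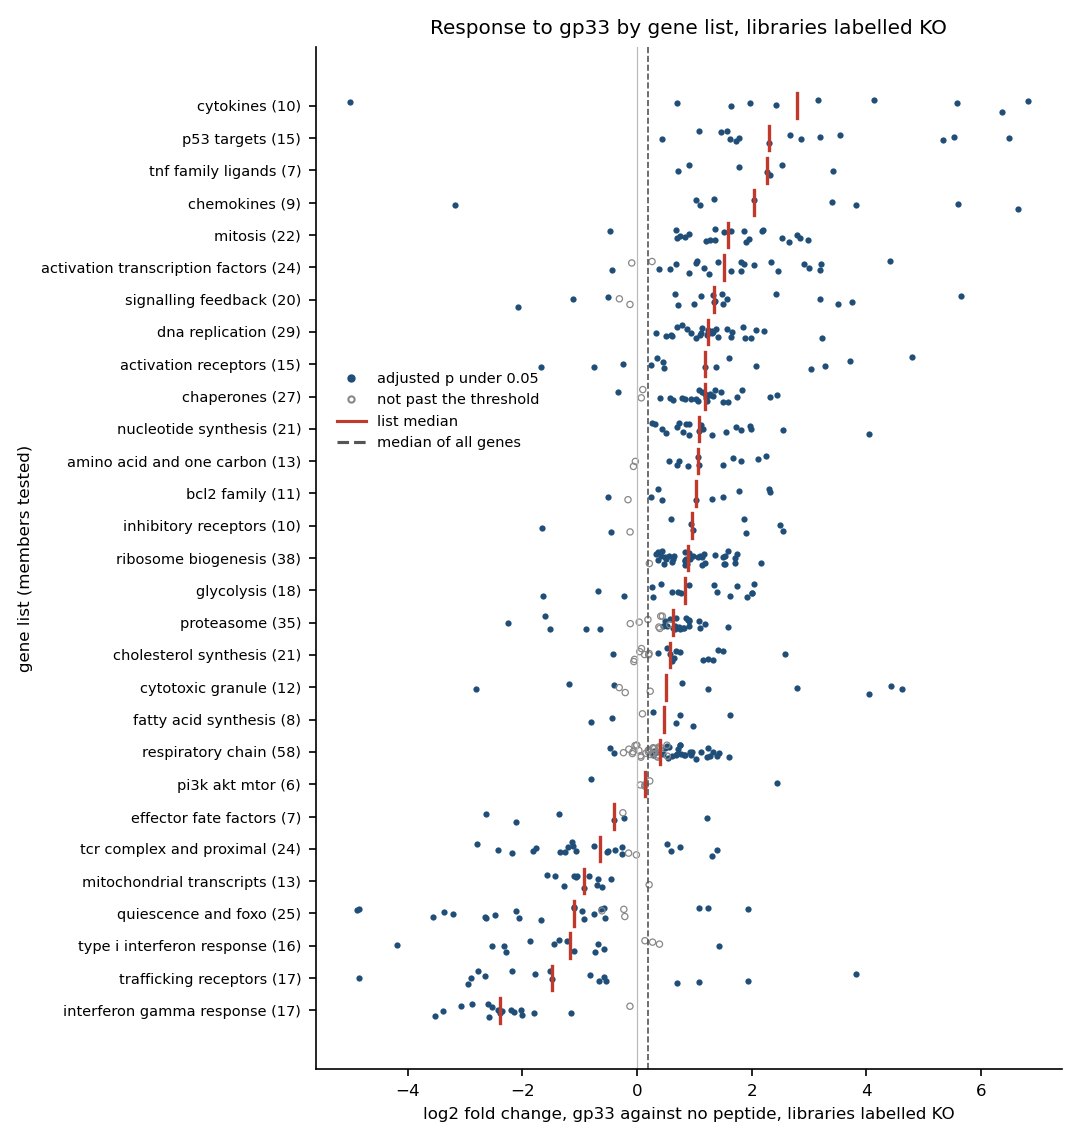
Log2 fold change of each tested list member between gp33 and no peptide in the libraries labelled KO (x axis, log2 of normalized value plus 1), by gene list (y axis, number tested in brackets). Filled points passed an adjusted p of 0.05, open points did not, red bars are list medians and the dashed line is the median of all genes, 0.20; cytokines lie farthest right with a median of 2.80 and interferon gamma response genes farthest left at -2.38.

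Receptors of activation and growth factors rose. Of 17 activation receptors 15 were tested, 12 rose and 3 fell, with a median of 1.19. Tnfrsf4, the costimulatory receptor OX40, was at 1.77, 3.78 and 3.35 without peptide and 104, 109 and 108 with gp33. Il2ra, the high-affinity IL-2 receptor chain CD25, went from 0.480, 0.737 and 0.504 to 19.8, 20.9 and 17.9. Both were low in all 3 unstimulated libraries and high in all 3 stimulated ones, with log2 fold changes of 4.80 (SE 0.37, adjusted p = 3.0e-08) and 3.71 (SE 0.10, adjusted p = 5.2e-13). The transferrin receptor gene Tfrc, which takes up iron for growth, rose by 3.27 and Tnfrsf9, the costimulatory receptor 4-1BB, by 3.04 on the log2 scale. Il2rg, Cd38 and Ly6a fell. The responses to gp33 of the first 3 of these receptor genes did not differ detectably from WT, with differences of -0.51, 0.35 and 0.093, whereas Tnfrsf9 rose less than in WT, by a difference of -1.09 (SE 0.27, adjusted p = 0.0082).

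Transcription factors of early activation followed the same course. Of 28 listed, 24 were tested, 21 rose and 1 (Rela) fell, with a median of 1.52. Bhlhe40, a repressor of the basic helix-loop-helix family that promotes cytokine production, went from 2.99, 4.61 and 4.05 to 101, 102 and 101. The AP-1 subunit gene Fosl1 was at 0, 0.0505 and 0.0147 without peptide, from 0, 8 and 2 recovered reads, and at 7.97, 8.99 and 8.37 with gp33. Neither gene's groups overlapped, and the log2 fold changes were 4.41 (SE 0.20, adjusted p = 1.2e-10) and 3.21 (SE 0.076, adjusted p = 1.2e-13). Batf3, another AP-1 family factor, rose by 3.19 and the orphan nuclear receptor gene Nr4a2 by 2.99. Fosl1 and Nr4a2 rose more than in WT, where the log2 fold changes were 1.15 and 1.28, and the differences were 2.06 (SE 0.11, adjusted p = 6.9e-08) and 1.71 (SE 0.10, adjusted p = 1.5e-07). In the difference of the responses, 9 of the 24 were higher and 3 lower in KO, beside 15.7% and 9.6% of all genes.

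Negative regulators of signalling rose, and often more than in WT. Of 29 listed, 20 were tested, 15 rose, 3 fell and Socs1 and Nfkbie passed neither way, with a median of 1.33. Rgs1, which shortens chemokine receptor signals by speeding GTP hydrolysis on G proteins, went from 2.49, 3.47 and 3.17 to 178, 217 and 210.3. It rose by 5.65 (SE 0.12, adjusted p = 4.9e-14) on the log2 scale in KO and by 3.89 in WT, a difference of 1.76 (SE 0.17, adjusted p = 8.5e-06). Its relative Rgs16 rose by 3.75, Spry1, a Sprouty inhibitor of the RAS pathway, by 3.50 and the cytokine signalling inhibitor Cish by 3.20. Socs3, another such inhibitor, was at 20.1, 32.2 and 34.3 without peptide and 6.90, 7.07 and 4.24 with gp33, and fell. The difference of the responses was called higher in KO for 15 of the 20 members and lower for 0, against 15.7% and 9.6% of all genes, and its median over the list was 0.86 against 0.00 over all genes.

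Most cytokine genes tested rose, Ifng among them. Of 16 listed, 10 passed the filter on low values, 9 rose and Ltb fell, with a median of 2.80. A gene that is silent without peptide can only pass through the stimulated libraries, so this count is a description. Ifng, the gene of interferon gamma, was at 2.87, 48.6 and 1.5 without peptide and 1092, 725 and 872 with gp33. Unstimulated replicate 2 was far above its group, yet every stimulated library was higher still, and the log2 fold change was 6.82 (SE 0.75, adjusted p = 1.4e-06). In WT the values were 0.0124, 0.434 and 0.321 and 55.9, 70.2 and 49.0, so the stimulated KO libraries lay above all WT libraries. The responses of Ifng differed by 1.26 (SE 1.07, adjusted p = 0.42). Without that KO library the difference was 2.59 (adjusted p = 0.00065), so 1 library decided this call.

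The growth factor cytokines were switched on from near nothing. Csf2, the gene of GM-CSF, was at 0.156, 0.0428 and 1.13 without peptide and 98.0, 162 and 86.6 with gp33 in KO, and at 0, 0 and 0.232 and 0.856, 1.93 and 2.81 in WT. Only the stimulated KO libraries were above 3 for this gene, and the response was larger in KO by 5.0 (SE 0.51, adjusted p = 1.2e-05) on the log2 scale. Il3, its neighbour in function as a myeloid growth factor, rose from 2, 1 and 0 recovered reads to normalized values of 42.4, 56.2 and 45.9, against 2.99, 3.96 and 3.35 in stimulated WT libraries. Il22, which acts on epithelial cells, rose from 0, 1 and 0 reads to values of 6.14, 11.2 and 7.36. In WT it was listed at 0, 0.103 and 0 with gp33, so no stimulated WT library reached the lowest stimulated KO library.

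Il2, the autocrine growth factor, went from 1.18, 0.633 and 0.725 to 27.9, 36.1 and 30.2 in KO and from 0.554, 0.853 and 0.471 to 5.61, 5.11 and 6.21 in WT. Its log2 fold change was 4.14 (SE 0.18, adjusted p = 5.9e-11) in KO and 2.03 in WT, with a difference of 2.11 (SE 0.25, adjusted p = 4.7e-05). Lta, the gene of lymphotoxin alpha, behaved the other way: it rose from 30.7, 15.0 and 19.2 to 136, 93.0 and 123, by 2.43 on the log2 scale, less than the 3.66 of WT (difference -1.23 (SE 0.31, adjusted p = 0.0094)). Ltb, which encodes the partner chain of lymphotoxin at the cell surface, fell from 763, 1049 and 964 to 28.9, 28.8 and 25, a log2 fold change of -5.01 (SE 0.11, adjusted p = 6.5e-14). Tnf rose from 5.95, 4.03 and 3.22 to 17.1, 12.9 and 16.8 and Lif from 0.169, 0.0961 and 0.0629 to 2.92, 3.6 and 3.55. The gene of IL-24 rose by 0.69 from at most 11 recovered reads.

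The Il2 promoter is the textbook NFAT target, so its window is shown (RefSeq, GRCm38.p6, chr3:37125905-37126204, minus strand, read 5′ to 3′ along the gene). Capitals mark the NFAT core GGAAAA, the second match lying on the other strand as TTTTCC.

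Il2: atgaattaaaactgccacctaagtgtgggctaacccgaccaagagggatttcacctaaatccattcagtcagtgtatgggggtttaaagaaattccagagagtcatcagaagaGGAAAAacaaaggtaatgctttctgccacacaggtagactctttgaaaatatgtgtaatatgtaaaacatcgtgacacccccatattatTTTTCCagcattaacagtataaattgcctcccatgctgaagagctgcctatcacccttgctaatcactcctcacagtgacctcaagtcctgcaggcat

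Both matches lie before the start, and no AP-1 letters (TGANTCA) were found. Among 14 cytokine windows, 4 (28.6%) held the NFAT core, near the 23.6% of all promoters, and the windows of Ifng, Csf2 and Il3 held none of the motifs searched.

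**Figure D2:**
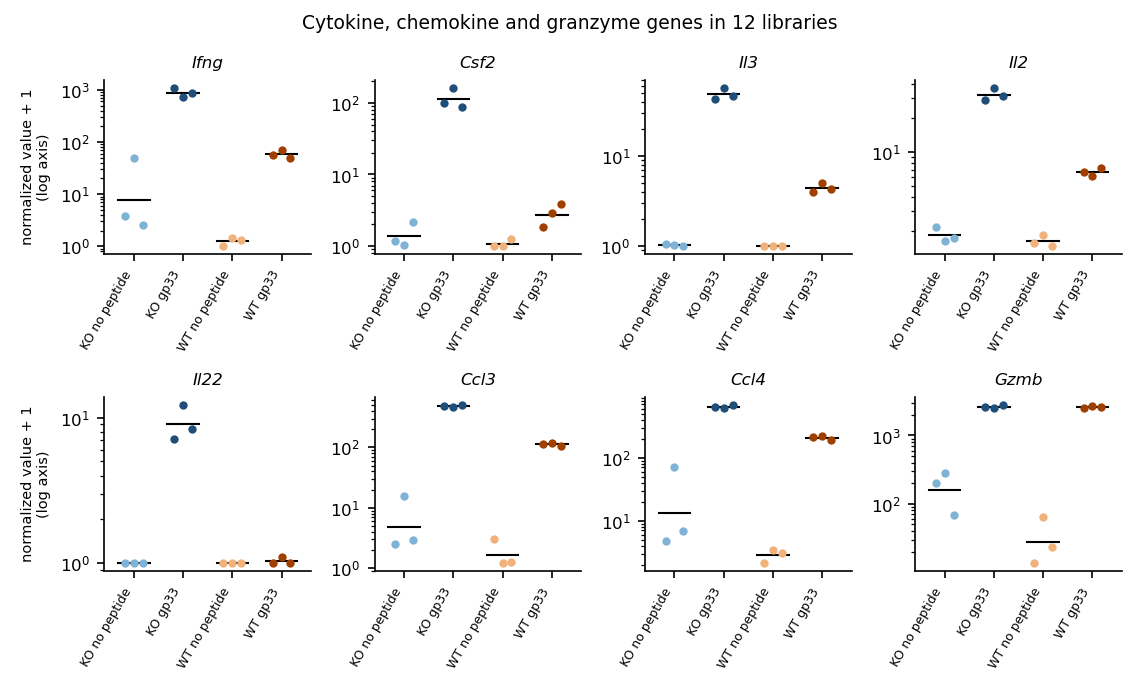
Normalized value plus 1 (y axis, log scale) of 8 secreted effector genes in the 12 libraries without inhibitor, grouped by genotype label and treatment (x axis); points are libraries and lines the mean of the log2 values. With gp33, Csf2, Il3, Il2 and Il22 lie higher in KO than in WT, Gzmb reaches the same level in both, and unstimulated KO replicate 2 lies above its group in Ifng, Ccl3 and Ccl4.

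Chemokine genes rose with the cytokines: 9 of 12 listed were tested, 8 rose and Ccl5 fell, with a median of 2.04. The limit of the filter given for the cytokines holds here too, so these counts are descriptions. The difference from WT was called higher for 4 of the 9, and for 2 without any one of KO unstimulated replicate 3, KO stimulated replicate 3, WT stimulated replicate 3 and WT unstimulated replicate 1. Ccl3, an inflammatory chemokine, was at 1.48, 14.7 and 1.91 without peptide and 488, 467 and 499 with gp33. Ccl4, its close relative, was at 3.81, 70.8 and 5.85 and 635, 616 and 682. In both, replicate 2 without peptide was the highest of its group and still below every stimulated library. The log2 fold changes were 6.65 (SE 0.53, adjusted p = 4.2e-08) and 5.60 (SE 0.68, adjusted p = 3.7e-06), and leaving out single libraries gave 6.17 to 7.5 and 4.86 to 6.81. Ccl22, a ligand of CCR4, went from 0.191, 0 and 0.414 to 11.2, 18.2 and 19 and rose more than in WT, by 3.03 (SE 0.61, adjusted p = 0.0024). Xcl1, which attracts cross-presenting dendritic cells, went from 1.93, 5.66 and 2.03 to 40.9, 35.1 and 45.2. Ccl5 fell from 90.8, 71.5 and 70.2 to 8.45, 7.96 and 6.61, a log2 fold change of -3.17 (SE 0.22, adjusted p = 9.0e-09), and its fall did not differ detectably from that in WT.

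All 7 tested ligands of the TNF family, of 11 listed, rose, with a median of 2.27. Several passed the filter only through the stimulated libraries, so this count is a description. By recovered reads 10 were tested, 8 rose and Tnfsf10, the gene of TRAIL, fell by -1.34, with a median of 1.56. Tnfsf4, the OX40 ligand, was at 0.0996, 0.0580 and 0.0716 without peptide and 8.22, 12.1 and 11.5 with gp33, but only 0.866, 0.584 and 0.634 in stimulated WT libraries. Cd70, the ligand of CD27, had 0 recovered reads in each unstimulated KO library and values of 3.94, 5.21 and 5.15 with gp33, against 0.328, 0.246 and 0.111 in stimulated WT libraries. Tnfsf11, which encodes RANKL, rose from 0.0245, 0.0705 and 0.0365 to 3.58, 4.89 and 3.70. The stimulated KO libraries lay above the stimulated WT libraries for all 3 genes, and the responses differed by 2.66 (SE 0.20, adjusted p = 9.8e-07) for Tnfsf4 and 1.76 (SE 0.11, adjusted p = 2.3e-07) for Tnfsf11. Tnfsf9, the 4-1BB ligand, rose in both genotypes, by 2.32 in KO and 2.22 in WT.

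Of 21 cytotoxic granule genes listed, 12 were tested, 6 rose and 3 fell, near the shares of all genes (41.1% and 27.3%), with a median of 0.51. Under median-of-ratios scaling 6 rose and 5 fell, and by recovered reads 8 rose and 6 fell of 17. Gzmb, the main granzyme of effector CD8 T cells, was at 201, 283 and 68.1 without peptide and 2604, 2507 and 2779 with gp33 in KO, and at 12.5, 63.5 and 22.2 and 2566, 2739 and 2640.4 in WT. The stimulated libraries of both genotypes overlapped, while the unstimulated KO libraries were above all WT ones, and the rise was 4.05 (SE 0.49, adjusted p = 3.9e-06) in KO and 6.60 in WT. Gzmc went from 0.247, 0.128 and 2.32 to 11.1, 8.77 and 12.1 and rose more than in WT, by 2.27 (SE 0.40, adjusted p = 0.001). Gzma, another granzyme, fell from 11.0, 16.4 and 6.04 to 4.98, 4.44 and 2.90. Prf1, the pore-forming perforin, was at 7.22, 9.45 and 7.76 and 10.4, 9.62 and 9.0, so its groups overlapped, and it did not pass (log2 fold change 0.23 (SE 0.15, adjusted p = 0.19)).

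The RNA of a granzyme B inhibitor and of a related serpin rose, while protection from granzymes was not measured. Serpinb9, an inhibitor of granzyme B, went from 3.93, 6.44 and 6.08 to 148, 158 and 166, and Serpinb6b, a related serpin, from 1.80, 2.03 and 1.96 to 54.2, 68.2 and 64.9. Every stimulated library was far above every unstimulated one, with log2 fold changes of 4.63 (SE 0.16, adjusted p = 7.2e-12) and 4.43 (SE 0.17, adjusted p = 1.5e-11). Ctsw, a cathepsin of cytotoxic cells, fell from 34.7, 31.1 and 29.5 to 4.38, 3.17 and 3.48. Klrk1, the NKG2D receptor, rose by 1.24 and the granule proteoglycan gene Srgn by 0.79, Ctsc, a protease that activates granzymes, fell (-0.39), and Lamp1 (-0.31) and Nkg7 (-0.21) passed neither way.

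Factors of memory and effector fate fell more often than they rose. Of 13 listed, 7 were tested, 5 fell and Tbx21 rose, with a median of -0.40, beside 27.3% lower and 41.1% higher among all genes. By recovered reads all 13 were tested, 7 fell and 2 rose, beside 27.9% and 34.8% of all genes, with a median of -0.46. Among the members so added Bcl6 and Tox fell, Zeb2 rose by 1.54, and Bach2, Prdm1 and Stat4 passed neither way. Tcf7, which encodes TCF1, the factor of stem-like T cells, was at 17.2, 19.7 and 19.4 without peptide and 2.02, 2.58 and 2.02 with gp33. Lef1, its relative, was at 6.40, 7.35 and 8.15 and 0.823, 1.04 and 0.889. Both fell without overlap, by log2 fold changes of -2.63 (SE 0.10, adjusted p = 1.5e-11) and -2.11 (SE 0.075, adjusted p = 6.4e-12), and less than in WT, with differences of 0.53 and 0.72. Tbx21, which encodes the effector factor T-bet, rose from 0.496, 0.803 and 0.889 to 3.59, 2.74 and 2.73, and Id3, a memory-linked inhibitor of E proteins, fell by -1.36.

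Of 15 inhibitory receptor genes 10 were tested, 7 rose and 2 fell, with a median of 0.96. By recovered reads all 15 were tested, 8 rose and 5 fell, beside 34.8% and 27.9% of all genes, with a median of 0.77. Entpd1, Klrg1 and Nt5e, under the main filter, fell by -1.63, -2.13 and -2.31. The difference from WT was higher in KO for 3 and lower for 2 by the main filter, and 4 and 6 by recovered reads. Lag3, a receptor for MHC class II, rose from 0.0127, 0.126 and 0.0961 to 5.55, 5.92 and 4.43, and Cd200, whose product engages CD200R on myeloid cells, from 0.381, 0.256 and 0.387 to 7.35, 6.33 and 6.05. Tigit and Pdcd1, the gene of PD-1, rose by 1.90 and 1.87 on the log2 scale. Vsir, which encodes VISTA, fell from 5.23, 5.81 and 4.87 to 0.980, 1.09 and 0.905. Ctla4, the competitor of CD28, is named outside the naming rule for its difference: it rose from 0.811, 0.860 and 0.867 to 2.60, 2.17 and 3.13 in KO and from 0.604, 0.740 and 0.726 to 8.34, 8.29 and 8.60 in WT, so its response was smaller in KO by -1.51 (SE 0.14, adjusted p = 4.1e-06).

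The quiescence and FOXO genes were the resting programme, and they fell. Of 28 listed, 25 were tested, 19 fell, 3 rose (Ccr7, Ddit4 and Trp53inp1) and 3 passed neither way (Btg1, Btg2 and Satb1), with a median of -1.11 beside 0.20 over all genes. S1pr1, the receptor that lets T cells leave lymphoid tissue, was at 155, 181 and 192 without peptide and 5.23, 4.63 and 5.52 with gp33. Klf2, the factor that drives S1pr1, was at 25.6, 25.7 and 26.3 and 1.11, 1.5 and 1.22. Il7r, the IL-7 receptor chain of resting and memory cells, was at 32.6, 35.8 and 36.2 and 2.63, 3.34 and 2.75. No stimulated library of these genes came near an unstimulated one, and the log2 fold changes were -4.85 (SE 0.11, adjusted p = 1.1e-13), -3.56 (SE 0.10, adjusted p = 4.5e-13) and -3.20 (SE 0.12, adjusted p = 8.4e-12).

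With gp33 these genes stayed at a higher level in KO than in WT. Stimulated WT libraries held S1pr1 at 2.30, 1.87 and 2.66, Klf2 at 0.765, 0.818 and 0.540 and Il7r at 0.986, 1.10 and 0.876, below each of the stimulated KO libraries. The falls were smaller in KO by 1.53 (SE 0.16, adjusted p = 1.5e-05), 0.97 (SE 0.14, adjusted p = 1.6e-04) and 1.37 (SE 0.17, adjusted p = 4.5e-05). The same held for Txnip, which blocks glucose uptake (difference 1.01), Tsc22d3, the glucocorticoid-induced GILZ gene (1.73), Klf3 (0.85) and Slfn2, a quiescence factor of T cells (1.11). Across the list the difference was called higher in KO for 18 of 25 members and lower for 1, Pik3ip1, against 15.7% and 9.6% of all genes. The list median in WT was -2.22.

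Some members moved against the rest. Ccr7, the lymph node homing receptor, rose from 92.2, 96.1 and 106 to 317, 461 and 362 in KO and from 137, 124 and 126 to 176, 148 and 151 in WT, a difference of 1.64 (SE 0.21, adjusted p = 6.9e-05). Trp53inp1, which is also a p53 target, rose from 2.93, 3.13 and 3.18 to 5.34, 11.0 and 7.36 in KO and fell from 6.37, 3.99 and 4.70 to 0.869, 0.665 and 0.761 in WT. Its groups ran in opposite directions in the 2 genotypes. Btg1, an antiproliferative gene, was at 66.8, 67.7 and 98.8 and 32.5, 93.5 and 40.2 in KO, where replicate 2 with gp33 overlapped the unstimulated libraries, and its log2 fold change of -0.61 (SE 0.30, adjusted p = 0.085) did not pass. Btg2, its relative, was at 59.9, 65.2 and 64.1 and 44.8, 70.3 and 48.9.

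**Figure D3:**
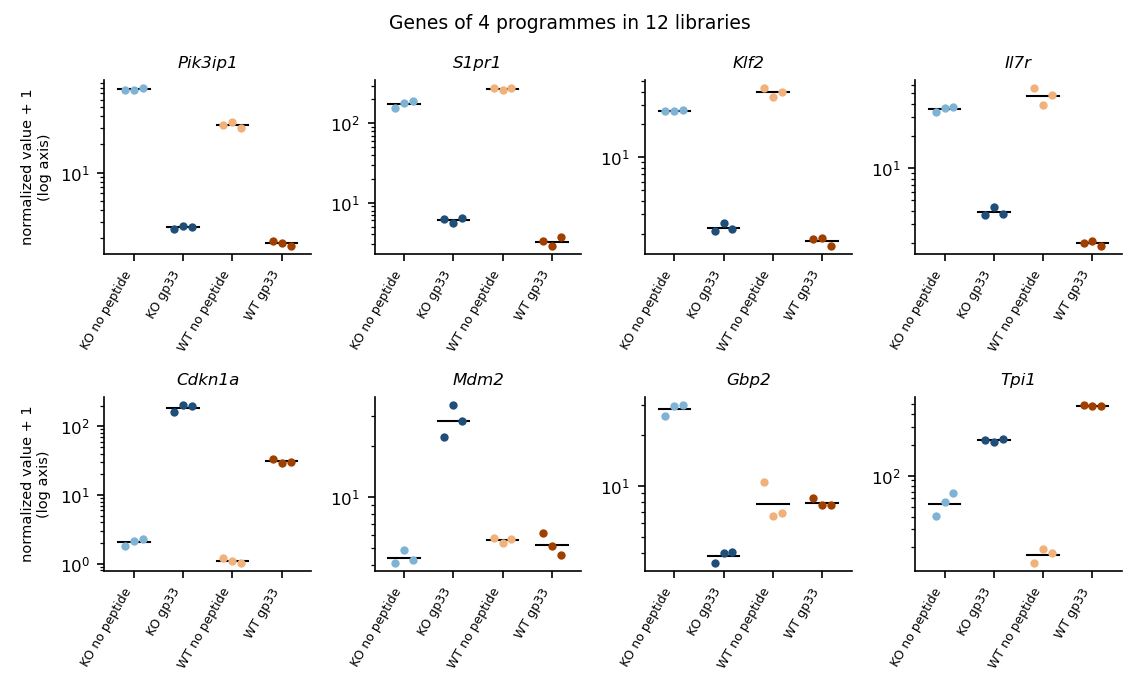
Normalized value plus 1 (y axis, log scale) of 8 genes in the 12 libraries without inhibitor, by genotype label and treatment (x axis); points are libraries and lines the mean of the log2 values. S1pr1, Klf2 and Il7r fall in both genotypes and end higher in the libraries labelled KO, Cdkn1a and Mdm2 reach higher levels in KO, Gbp2 falls in KO alone (difference -2.89) and Tpi1 ends higher in WT.

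Trafficking receptors mostly fell, 13 of the 17 tested of 20 listed, and 4 rose, with a median of -1.48. Ccr8, a receptor of activated and skin-homing T cells, rose from 0.167, 0.312 and 0 to 14.5, 16.7 and 14.9. S1pr4, another sphingosine phosphate receptor, fell from 35.8, 50.2 and 56.4 to 5.62, 6.57 and 3.69. Cxcr3, the receptor for interferon-induced chemokines, was at 147, 160.5 and 152 without peptide and 18.1, 18.1 and 23.4 with gp33 in KO, and at 18.5, 14 and 15.8 and 7.17, 6.74 and 6.54 in WT. The unstimulated KO libraries were far above the WT ones, and the fall was larger in KO by -1.78 (SE 0.17, adjusted p = 7.6e-06).

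The T cell receptor complex and its proximal enzymes fell: 17 of the 24 tested, of 28 listed, were lower, 5 higher and Themis and Zap70 passed neither way, with a median of -0.64. Cd8b1, the beta chain of the coreceptor used for sorting, was at 147, 137 and 128 without peptide and 24.6, 24.3 and 25.5 with gp33. Sit1, a membrane adaptor that limits receptor signals, was at 76.7, 73.3 and 69.8 and 7.79, 9.88 and 12. Cd3g and Cd3d, signalling chains of the receptor, fell by -2.17 and -1.82. All were lower in each stimulated library, and their responses did not differ detectably from WT except for Cd8b1, by -0.40 (SE 0.14, adjusted p = 0.043). Cd5, an inhibitor of receptor signalling, and Cd6, its relative, rose by 1.39 and 1.32.

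The PI3K, AKT and mTOR list was mostly under the filter, since 6 of its 27 genes were tested. Eif4ebp1, the translation repressor that mTOR switches off, rose from 2.75, 2.20 and 2.29 to 17.5, 17.1 and 17.6, a log2 fold change of 2.44 (SE 0.09, adjusted p = 9.6e-12). Pik3cd, the PI3K delta catalytic subunit, fell from 2.55, 2.20 and 2.74 to 0.947, 1.18 and 0.883. Akt1, Rheb and Rps6kb1 passed neither way. The list median was 0.14 and -0.03 under median-of-ratios scaling. With genes kept by recovered reads, 26 were tested, 3 rose and 11 fell, with a median of -0.31.

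That second filter kept genes with at least 10 recovered reads in 3 or more libraries and used reads per 1e6 (RPM). It tested 17861 genes and called 34.8% of them higher and 27.9% lower in the KO libraries. Among the members it added, Pik3r1, the p85 alpha regulatory subunit, was at 52.1, 44.2 and 43.8 RPM without peptide and 20.7, 20.7 and 17.6 with gp33. Inpp4b, a phosphatase of the PI3K pathway, was at 91.2, 99.4 and 101 and 31.3, 37.1 and 28.5. Rictor, a subunit of mTORC2, was at 51.3, 61.3 and 63.6 and 18.7, 24.7 and 22.9, and Mtor at 7.39, 10.1 and 5.41 and 17.6, 16.7 and 17.7. The first 3 fell without overlap and Mtor rose, and the falls of Pik3r1, Inpp4b and Rictor were smaller than in WT, by differences of 1.05, 0.57 and 1.41. These 4 were chosen after their values were seen.

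Glycolysis genes rose, and less in KO than in WT. Of 21 listed genes 18 were tested, 15 rose and 3 fell (Pdk1, Aldoc and Slc2a3), with a median of 0.84 in KO and 1.84 in WT. Tpi1, triose phosphate isomerase, was at 39.7, 54.2 and 67.2 without peptide and 224, 212 and 225 with gp33 in KO, and at 13.0, 18.2 and 16.7 and 487, 473 and 480.0 in WT. The KO libraries were higher than WT without peptide and lower than WT with it, and the responses differed by -2.79 (SE 0.22, adjusted p = 1.2e-06). Gapdh rose by 2.00, Pgam1 by 2.00 and Ldha, which turns pyruvate into lactate, by 1.92, each less than in WT (3.20, 3.15 and 2.93). The difference of the responses was lower in KO for 15 of the 18 and higher for 0, against 9.6% and 15.7% of all genes. These enzymes have many processed pseudogenes, so their values are uncertain, since reads may be shared between copies. Aldoc, the brain-type aldolase, is named outside the naming rule because its directions were opposite: 0.593, 1.53 and 2.17 to 0.467, 0.533 and 0.363 in KO and 0.626, 1.32 and 1.26 to 5.16, 4.62 and 5.41 in WT.

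Supply of amino acids and one-carbon units rose in 11 of the 13 tested of 20 listed, with 0 falls and a median of 1.06. Mthfd2, the mitochondrial folate enzyme, went from 2.20, 2.41 and 1.91 to 15.6, 13.0 and 13.6, and Psat1 of serine synthesis from 1.05, 0.661 and 0.419 to 7.18, 5.45 and 6.37. Shmt2 rose by 1.82 and Asns, asparagine synthetase, by 1.68. Both responses of Mthfd2 and Psat1 were smaller than in WT, by -0.57 and -0.81. Nucleotide synthesis rose in all 21 genes tested of 22 listed, with a median of 1.08. Rrm2, the ribonucleotide reductase subunit of dividing cells, went from 13.9, 10.5 and 5.31 to 185, 150.3 and 170.3, and Tyms, thymidylate synthase, from 1.73, 1.05 and 0.752 to 12.2, 10.4 and 12.1. Dut and Rrm1 rose by 1.98 and 1.97.

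Cholesterol synthesis rose in 13 of the 21 tested of 24 listed, fell in Ebp and passed neither way in 7, with a median of 0.57 in KO and 1.12 in WT. Idi1, which makes the isoprenoid building block, went from 9.62, 9.73 and 9.42 to 69.5, 54.8 and 63.8, a log2 fold change of 2.58 (SE 0.11, adjusted p = 5.3e-11). Insig1, a sterol sensor, Cyp51 and Stard4, a sterol carrier, rose by 1.5, 1.41 and 1.33. The response was smaller in KO than in WT for 14 of the 21 genes and larger for 0. Fdps, farnesyl diphosphate synthase, which has processed pseudogenes, went from 2.87, 2.43 and 1.81 to 5.15, 3.69 and 4.35 in KO and from 1.88, 2.50 and 1.97 to 18.4, 20.8 and 21.6 in WT. Hmgcs1, the synthase that feeds the pathway, was at 2.24, 3.68 and 2.49 and 5.23, 5.43 and 3.67 in KO, where the groups overlapped at their edges, and at 4.60, 3.57 and 3.34 and 11.9, 11.1 and 9.65 in WT, a difference of -0.70 (SE 0.21, adjusted p = 0.027). Both genes are named outside the naming rule.

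The Hmgcs1 window (RefSeq, GRCm38.p6, chr13:119690101-119690400, plus strand) is shown because SREBP factors drive this pathway through sterol elements. Capitals mark the searched SREBP letters TCACNCCAC, then the NFAT core GGAAAA.

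Hmgcs1: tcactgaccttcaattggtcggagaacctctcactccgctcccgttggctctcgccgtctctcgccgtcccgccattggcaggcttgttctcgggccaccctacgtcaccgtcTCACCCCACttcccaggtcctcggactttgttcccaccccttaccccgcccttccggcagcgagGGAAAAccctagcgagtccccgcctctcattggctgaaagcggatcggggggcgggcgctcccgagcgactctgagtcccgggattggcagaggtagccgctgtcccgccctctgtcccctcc

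This was the only SREBP match among the 17 windows of the list (5.88%), beside 1.22% of all promoters.

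Of 12 fatty acid synthesis genes 8 were tested, 5 rose and 2 fell, with a median of 0.48. Scd2, a stearoyl desaturase, went from 0.876, 0.413 and 0.321 to 3.28, 3.82 and 3.99 in KO and from 0.411, 0.495 and 0.793 to 12.1, 11.7 and 12.7 in WT, a difference of -1.45 (SE 0.19, adjusted p = 8.3e-05). Elovl1, a chain elongase, and Mid1ip1, an activator of acetyl-CoA carboxylase, rose by 0.97 and 0.75, and Elovl5 fell by -0.80.

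Growth and division genes moved together. Ribosome biogenesis rose in 37 of the 38 tested of 44 listed, with a median of 0.90 and 0 falls. Nhp2, a core protein of H/ACA snoRNPs, went from 42.4, 36.3 and 25.8 to 161, 148 and 159.7, and Nop16, Bysl and Pno1 rose by 1.74, 1.71 and 1.70. The E-box CACGTG, the letters that MYC binds, was in 9 of 37 windows of this list (24.3%) in 7.24% of all promoters and in 10.7% of those of the protein-coding genes tested. It was also in 17.6% of the cholesterol and 18.2% of the p53 target windows, and in 15% each of the glycolysis and activation transcription factor windows. Myc, named outside the rule, went from 58.6, 65.7 and 69.6 to 192, 169.7 and 159, and a part of MYC in the rise of this list was not tested. DNA replication rose in all 29 genes tested of 42 listed, with a median of 1.25. By recovered reads all 42 were tested and 42 rose. Ccne2, the cyclin that starts S phase, went from 1.19, 1.11 and 0.733 to 19.8, 15.0 and 19, and Orc6, Ccne1 and Cdc6 rose by 2.21, 2.08 and 1.99.

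Mitosis genes rose in 21 of the 22 tested of 28 listed, and Kif23 fell, with a median of 1.58. Birc5, which encodes survivin, was at 11.1, 9.28 and 2.87 without peptide and 64.1, 51.7 and 69.5 with gp33, and its log2 fold change was 2.99 (SE 0.34, adjusted p = 2.0e-06). Unstimulated replicate 3 was the lowest for Birc5, but no unstimulated library reached a stimulated one. Ccna2, Ccnb1 and Aurkb rose by 2.83, 2.78 and 2.66. The difference of the responses was lower in KO for 7 of the 22 and higher for 2, against 9.6% and 15.7% of all genes. The count of 7 rests on single libraries: it was 12 without KO unstimulated replicate 3 and without WT stimulated plus inhibitor replicate 2. It was 4 without KO unstimulated replicate 2 and 3 without any one of KO stimulated replicate 2, KO unstimulated replicate 1, WT stimulated replicate 3 and WT unstimulated replicate 1.

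Protein folding and turnover followed. Chaperones rose in 24 of 27, fell in Dnaja1, and had a median of 1.18. The mitochondrial pair Hspe1 and Hspd1 rose by 2.44 and 2.32, Hsp90aa1 by 1.83 and the inducible Hspa1b, which has the near-identical copy Hspa1a, by 1.74. Proteasome genes rose in 22 of the 35 tested of 37 listed. The 5 that fell were Psmb8, Psmb9 and Psmb10, the catalytic subunits of the immunoproteasome that interferon gamma induces, and Psme1 and Psme2, its activator subunits. Psmb8 was at 364, 358 and 335 without peptide and 119.9, 111 and 114 with gp33 in KO, and at 214, 230.4 and 226 and 158, 159.7 and 166 in WT. Psmb9 was at 88.3, 81.6 and 77.3 and 27.7, 27.5 and 29.1 in KO and at 38.6, 34.0 and 31.5 and 36.5, 36.1 and 38.7 in WT. Unstimulated KO libraries were above all others, stimulated KO libraries were below all WT libraries, and the responses differed by -1.14 (SE 0.16, adjusted p = 1.9e-04) and -1.62 (SE 0.21, adjusted p = 7.0e-05). Psme3, the activator outside this group, rose by 1.59.

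Of 58 respiratory chain genes of the nucleus 29 rose and 2 fell, beside 41.1% and 27.3% of all genes, with a median of 0.40. Under median-of-ratios scaling 18 rose and 3 fell, beside 3290 and 3426 of all 10257 genes. Without KO unstimulated replicate 2 the rises were 22, beside 3962 of all genes, and without replicate 3 they were 20, beside 3912. The count of rises was thus near the share of all genes in these alternatives. Cycs, cytochrome c, rose from 102, 90.7 and 77.6 to 269, 264 and 287. Transcripts encoded by the mitochondrial genome fell, with 12 of 13 lower, 0 higher and a median of -0.93. mt-Co1 fell from 4873, 4827 and 5433 to 1525, 1819 and 1786, and mt-Nd5 and mt-Nd6 by -1.43 and -1.27. The WT median was -1.06, and the difference was called in 1 gene of this list, mt-Cytb.

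Interferon response genes fell. Of 19 genes of the interferon gamma response 17 were tested, 16 fell and Tap1 did not pass, with a median of -2.38 in KO and -0.69 in WT. Gbp2, a guanylate-binding protein of host defence, was at 24.8, 28.3 and 28.8 without peptide and 2.50, 3.04 and 3.04 with gp33 in KO, and at 9.54, 5.61 and 5.94 and 7.47, 6.65 and 6.66 in WT. Igtp, an immunity-related GTPase, was at 272, 299.8 and 286 and 60.4, 66.0 and 64.3 in KO, and at 91.6, 37.2 and 67.2 and 101, 93.3 and 94.1 in WT. For both genes the unstimulated KO libraries were the highest of the 12 and the stimulated ones overlapped or lay below WT, and the differences were -2.89 (SE 0.20, adjusted p = 5.8e-07) and -2.79 (SE 0.31, adjusted p = 2.4e-05).

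Most of the list followed: the difference of the responses was lower in KO for 16 of the 17 genes and higher for 0, against 9.6% and 15.7% of all genes. Iigp1, of the same GTPase family, fell from 43.4, 57.0 and 58.6 to 10.4, 8.59 and 8.11 in KO and rose from 6.30, 1.02 and 2.68 to 10.6, 8.93 and 10.1 in WT, a difference of -3.94 (SE 0.46, adjusted p = 4.0e-05). Of the 2 members tested only by recovered reads, Nlrc5, a regulator of class I genes, and Gbp5 showed differences of 0.0041 and -0.64, neither of them called. Ifi47 fell by -3.06 in KO and -0.69 in WT. Tgtp1 and Tgtp2, near-identical neighbours whose reads may be divided between them, fell by -3.38 and -3.52. Irf1 and B2m, named outside the naming rule as the regulator and the class I light chain, fell in both genotypes, by -2.58 and -2.20 in KO and -1.36 and -1.52 in WT.

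Of 23 genes of the type I interferon response 16 were tested, 12 fell and Ifitm3 rose, with a median of -1.16. Ifit3, an antiviral RNA-binding protein, fell from 70.0, 82.8 and 83.4 to 4.32, 3.63 and 2.36, against 14, 10.1 and 10.6 and 1.17, 0.919 and 1.12 in WT. Rtp4 and Irf7 fell by -2.53 and -2.28, and the difference was lower in KO for 8 of the 16 genes and higher for 1, Irf9. By recovered reads all 23 were tested, 4 rose and 15 fell. The difference was then lower for 6 and higher for 4, against 1252 and 2921 of all 17861 genes. Its median went from -0.43 to -0.16. Mx1, Mx2 and Oasl1, under the main filter, rose in KO with differences of 1.46, 1.41 and 1.93.

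p53 target genes rose more in the libraries labelled KO. Of 16 listed, 15 were tested and 15 rose, with a median of 2.30 in KO and 0.91 in WT. A member that is silent without peptide can pass the filter only through libraries with gp33, so the counts of this list are descriptions. Cdkn1a, the p21 gene whose product halts the cell cycle, was at 0.809, 1.13 and 1.32 without peptide and 159, 202 and 197 with gp33 in KO, and at 0.192, 0.0995 and 0.0171 and 32.9, 28.0 and 29.5 in WT. Mdm2, the ubiquitin ligase that limits p53, was at 3.10, 3.88 and 3.26 and 21.7, 33.8 and 27.1 in KO, and at 4.80, 4.37 and 4.72 and 5.13, 4.18 and 3.58 in WT. The stimulated KO libraries of both genes stood above all other libraries, and the log2 fold changes in KO were 6.49 (SE 0.15, adjusted p = 1.1e-13) and 2.68 (SE 0.15, adjusted p = 7.4e-10). The difference was 2.77 (SE 0.21, adjusted p = 9.8e-07) for Mdm2 and 1.67 (SE 0.21, adjusted p = 7.8e-05) for Cdkn1a. That of Cdkn1a fell to -0.0014 with a pseudocount of 0.1 and to 0.016 by recovered reads, where the lower unstimulated level in WT counts for more, so its size depends on the pseudocount.

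Phlda3, which dampens AKT, rose from 0.201, 0.442 and 0.0974 to 48.3, 73.1 and 50.6 in KO and to 8.11, 6.55 and 4.96 in WT. Perp, a membrane effector of p53, rose from 0.151, 0.0256 and 0.00976 to 33.2, 48.2 and 46.5 in KO and to 8.19, 7.69 and 7.21 in WT, and Plk2, a polo-like kinase, from 0.0968, 0.0797 and 0.0811 to 10.2, 12.9 and 12.1 and to 1.36, 1.47 and 1.12 in WT. In all 3 genes the stimulated KO libraries were above the stimulated WT ones. Ccng1, a cyclin that p53 induces, rose by 3.18 in KO and 0.91 in WT, and Pmaip1, the BH3-only gene Noxa, by 2.30 in KO with -0.04 in WT. Over the list the difference was higher in KO for 14 of 15 genes and lower for 0, Bax being the exception (difference 0.67 (SE 0.35, adjusted p = 0.18)).

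Of 17 genes of the BCL2 family 11 were tested, 9 rose and Mcl1 fell, with a median of 1.03. Bcl2l1, which encodes the survival protein BCL-XL, went from 0.251, 0.201 and 0.185 to 5.06, 5.18 and 4.90, and the pro-apoptotic Bax from 10.9, 8.88 and 8.98 to 30.9, 39.7 and 34.9. Protective and pro-apoptotic members were thus both among those that rose. By recovered reads 16 were tested, 9 rose and 3 fell, with a median of 0.71. Bcl2 (-0.98) and Bcl2l11 (-0.73), under the main filter, fell. The near-identical copies Bcl2a1a, Bcl2a1b and Bcl2a1d, between which reads may be divided, rose by 1.03, 1.31 and 1.51. The difference was higher in KO for 5 of the 11 and lower for 0, against 15.7% and 9.6% of all genes. By recovered reads it was higher for 4 of the 16 and lower for 1, Bcl2 (-1.07), against 2921 and 1252 of all 17861 genes. The median difference went from 0.62 to 0.32.

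Across all genes the responses of both genotypes ran mostly in the same direction. WT called 4319 genes higher (42.1%) and 3239 lower (31.6%), and 5783 genes were called the same way in both, 82.3% of the KO calls and 76.5% of the WT calls. The log2 fold changes of the 10257 genes correlated at 0.86, a description across genes in comparisons that share no library. Called in opposite directions were 161 genes, 120 higher in KO and lower in WT and 41 the reverse. The difference itself was called in 1610 genes higher in KO (15.7%) and 985 lower (9.6%). Without WT stimulated plus inhibitor replicate 2, a library outside the comparison, 2086 were higher (20.3%) and 1796 lower (17.5%). With the full set of libraries 452 genes were called in KO and in the difference but not in WT. Under protein-coding rescaling 78.2% of the difference calls were higher in KO, against 62.0% before, 48.8% with a filter at a value of 5 and 54.3% with only the libraries compared, so the balance of directions depends on the processing.

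**Figure D4:**
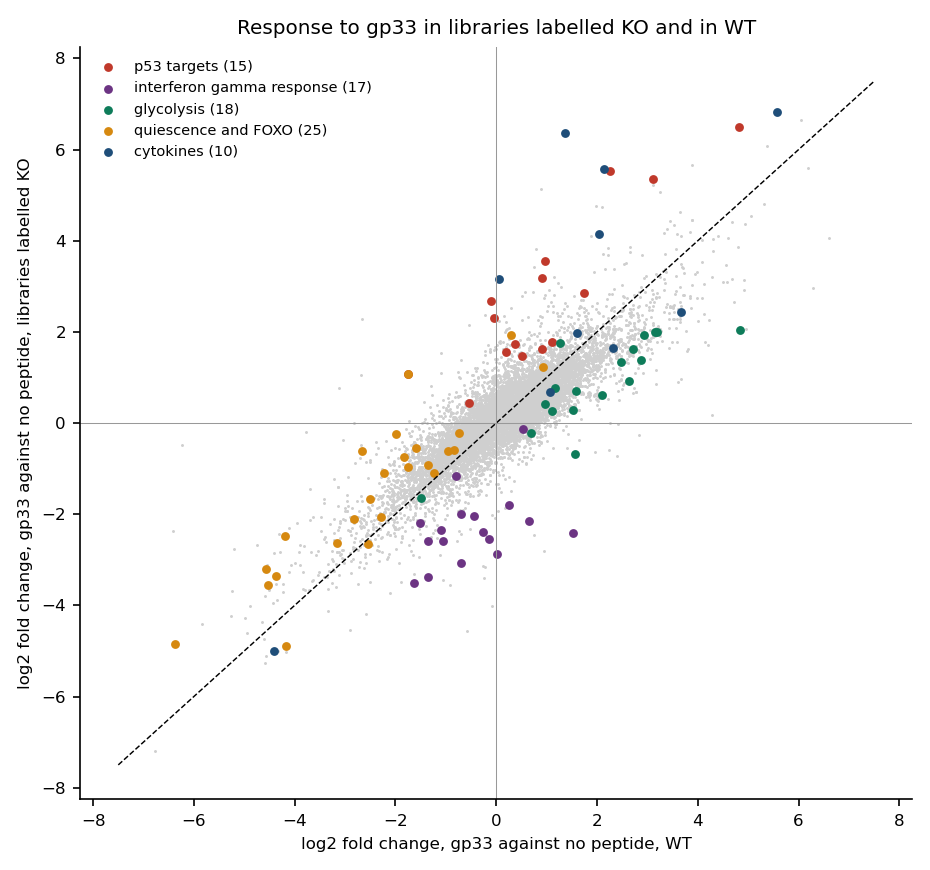
Log2 fold change between gp33 and no peptide in WT (x axis) and in the libraries labelled KO (y axis) for the 10257 genes tested (grey) and members of 5 lists (coloured); the dashed line marks equal responses. p53 targets and most cytokines lie above the line, and the interferon gamma response and glycolysis genes mostly below it, as in the counts of 14 of 15, 16 of 17 and 15 of 18 members whose difference was called.

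Among the genes named for size alone, outside the lists, Crabp2, a retinoic acid carrier, rose from 0.0298, 0.0218 and 0.125 to 73.1, 70.9 and 66.9 and Psrc1, a spindle protein, from 0.138, 0.304 and 0.187 to 37.4, 49.5 and 46.4. Ccdc184, of which no role is given here, was at 0.0314, 0.0172 and 0.0198 and 27.5, 46.1 and 33.6 in KO and reached 2.11, 1.14 and 0.604 in WT. Crabp2 rose by 6.07 in KO and 5.37 in WT, while Psrc1 and Ccdc184 rose more in KO, by 2.11 and 4.25. Adm, which encodes the vasoactive peptide adrenomedullin, went from 0, 0.238 and 0 to 26.6, 26.1 and 30.8 in KO and from 1.03, 0.724 and 0.515 to 7.58, 4.54 and 7.89 in WT.

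Cd7, a T cell surface protein, fell from 366, 371 and 380.0 to 1.33, 1.46 and 1.95, a log2 fold change of -7.18 (SE 0.11, adjusted p = 9.6e-16) against -6.77 in WT. Fam189b fell from 135, 130.1 and 134 to 3.38, 2.99 and 3.20 and the interferon-induced gene Ifit1bl1 from 55.9, 61.9 and 62.3 to 0.676, 0.592 and 0.483. Calhm6, of the calcium homeostasis modulator family, fell by -4.54 and Ypel3 by -4.02. The groups of all 5 genes lay far apart. Apoe, a lipid carrier that macrophages make, fell from 68.6, 51.7 and 30.5 to 1.16, 2.50 and 0.584.

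The difference of the responses named genes that started high in the libraries labelled KO. Ly6a, the surface marker Sca-1, was at 631, 621 and 592 without peptide and 461, 546 and 544 with gp33 in KO, but rose from 68.4, 55.9 and 71.1 to 451, 482 and 476 in WT. Ly6c1, a marker of effector and memory T cells, fell from 21.5, 18.8 and 22 to 2.16, 3.35 and 3.46 in KO, against 0.814, 0.638 and 1.10 and 1.82, 2.35 and 2.10 in WT. Ifitm2 was at 176, 201 and 132 and 95.5, 103 and 103 in KO, and at 3.30, 2.25 and 2.08 and 15.7, 19 and 17.7 in WT. In all 3 genes the unstimulated KO libraries were several times above the unstimulated WT ones, and the differences were -3.09 (SE 0.15, adjusted p = 4.9e-08), -3.20 (SE 0.18, adjusted p = 1.2e-07) and -3.13 (SE 0.23, adjusted p = 8.2e-07). Mt1, a metallothionein that binds zinc, rose in both but less in KO, from 8.82, 10.3 and 7.74 to 92.9, 62.6 and 75.3 against 2.90, 0.909 and 1.79 to 192, 198 and 258. Of the small RNAs, 7SK, which a polyA library catches poorly, was at 3.39, 7.13 and 10.8 and 7.59, 8.75 and 3.96 in KO and fell in WT, and the mitochondrial tRNA mt-Tq was at 23.1, 15.9 and 14.9 and 15.5, 16.7 and 5.48 from 8 to 35 recovered reads.

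Markers of the sorted cell and of other cells moved with treatment. The defining markers of CD8 T cells were present in every library, and Cd8a was at 246, 268 and 248 without peptide and 112, 96.0 and 111 with gp33, while Cd4 stayed under 0.1 in all 6 KO libraries. Summed over 11 CD8 T cell markers the level was 3497 to 3831 without peptide and 1738 to 1931 with gp33, and 10 of the 11 fell. In this and the other sums each gene counts by its reads over its genomic span, so short genes weigh more. The sums compare libraries for the same genes and do not measure the share of a cell type. B cell markers fell in all 10 tested of 13 listed. Their sum without Igkc was 416.5 to 639 without peptide and 59.9 to 82.6 with gp33, and Igkc was at 2246, 1383 and 20464 and 947, 165 and 185. MHC class II genes fell in all 8 tested of 9, from a sum of 196.5 to 310 down to 26.3 to 39.0. In bulk RNA, fewer cells of a type and less RNA per cell cannot be told apart.

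Of 13 myeloid markers 6 were tested, 4 fell and Cst3 rose, and the sum was 140 to 227 without peptide and 110 to 149 with gp33. Cst3 alone was at 57.0, 54.2 and 60.4 without peptide and 90.2, 139.7 and 106.3 with gp33, so it made up most of the stimulated sums. By recovered reads 10 were tested, 8 fell and 1 rose. Lyz2, lysozyme, was at 62.8, 111 and 41.1 and 3.97, 3.20 and 5.20, and S100a8 at 9.77, 38.6 and 44.9 and 9.0, 0.404 and 0.184, where stimulated replicate 1 stood apart from the other 2. NK cell markers fell in all 3 tested of 8 (Tyrobp, Fcer1g and Gzma, the last also a granule gene), and the sum of the list went from 19.8 to 29.7 to 5.78 to 7.29. By recovered reads 6 NK cell markers were tested and 4 fell, while Klre1 (0.0091) and Klrb1c (-1.31) passed neither way. Unstimulated WT libraries had lower NK (3.36 to 4.53) and myeloid (63.5 to 88.5) sums than unstimulated KO libraries. Their MHC class II sum was higher (346 to 403), and their B cell sum without Igkc overlapped (569.5 to 756.5). Pf4, a platelet chemokine, was at 22.5, 20.7 and 10.2 without peptide and 0.0465, 0.300 and 0 with gp33 in KO, and at or under 0.19 in every WT library. The red cell and platelet sum was 14.7 to 33.9 without peptide and 0.205 to 1.31 with gp33. Of the markers with deposited values, none was at 0 in all 6 KO libraries. Such values exist for 11 of the 13 myeloid and 7 of the 8 red cell and platelet markers, and Clec9a, Siglech and Alas2 have none. The part of these cells in the falls of the MHC class II genes, Apoe and Ltb was not tested.

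**Figure D5:**
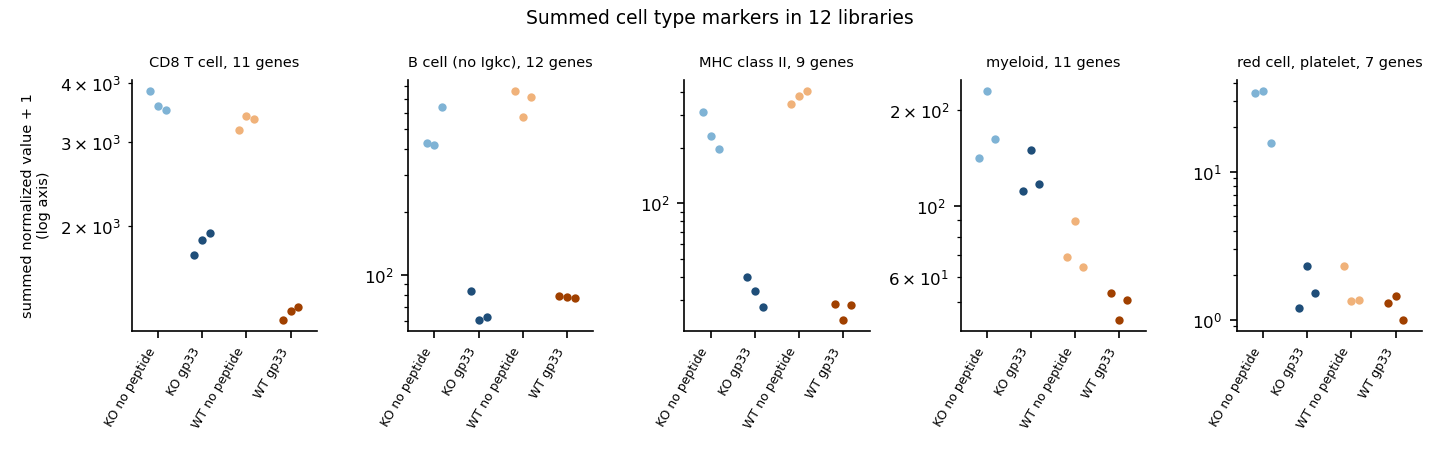
Summed normalized value plus 1 (y axis, log scale) of markers of 5 cell classes in the 12 libraries without inhibitor, by genotype label and treatment (x axis); each point is 1 library and B cell markers are summed without Igkc. Each gene counts by its reads over its genomic span. CD8, B cell and MHC class II sums are lower with gp33 in both genotypes. The myeloid sum is lower in the KO libraries by ranges that overlap, and Cst3, which rose, makes up most of it with gp33. The red cell and platelet sum is high in unstimulated KO libraries alone, at 14.7 to 33.9.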

How the data were processed

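RNA was measured in 18 libraries of sorted CD8 T cells, prepared with a stranded polyA kit per the labels' protocols. The authors deposited 1 table of 23414 genes whose values behave as log2 of a normalized value plus 1, normalized in Partek per the table's name, with log base, offset, method and counting strand not stated. Aligner and counter are not given in the sources used here, and the submitters' processing notes name GRCm38 and GRCm39 without their role. Reads were recovered from the deposited log2 values: of 105229 values up to 20 steps, 89.0% were whole multiples of 1 read over the gene's genomic span in GENCODE (99.4% of identifiers had a span) within 0.05. Genes with many copies, antisense neighbours or overlaps are uncertain for lack of stated counting rules.

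Genes reaching a value of 1 in 3 libraries were fitted with limma (version 3.58.1, with statmod version 1.5.0, under R version 4.3.3) and 1 mean per group over all 18 libraries, a pseudocount of 1, trended and robust moderation and 12 residual degrees of freedom. Fold changes are on the log2(value + 1) scale, which understates those of low genes. Tests were two-sided with Benjamini-Hochberg adjusted p under 0.05, and the fit was tested on simulated data. Promoter windows and their 5 motifs came from RefSeq, 250 bases before to 50 after a start. All columns of the table were used or belong to the inhibitor groups. Sequencing depth was recovered as described and its precision is counting error only.

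The members, the 37 gene lists and the tests were chosen with earlier results of these data known. Named genes were Pik3ip1, the 12 largest rises and falls with non-overlapping groups and a mean log2 of at least 2, the 4 largest changes of each list, the 8 largest differences each way, and members of the cytokine, granule, quiescence and marker lists. Other names, given for small counts or for a difference from WT, were chosen after their values were seen, and a few genes the rule named are not reported here. Alternatives were pseudocounts of 0.1 and 4, no filter and a filter of 5, 2 scalings, plain moderation and a replicate block. Others used only the libraries of the groups compared, or left out each of the 12 compared libraries or WT stimulated plus inhibitor replicate 2. The other inhibitor libraries were not left out singly. A filter by recovered reads was chosen after seeing the data.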

Additional observations from a re-analysis of the deposited data

Results flagged for a closer look

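The responses to gp33 of the libraries labelled KO and of WT were compared gene by gene by the test of the difference itself (KO response minus WT response, log2 scale, limma adjusted p under 0.05). Of the genes named for the KO response or for the difference, the KO response was the higher for Csf2 (5.0), Ccdc184 (4.25), Il3 (3.43), Phlda3 (3.27), Trp53inp1 (2.83), 7SK (2.81), Mdm2 (2.77), Adm (2.64), Pmaip1 (2.34), Ccng1 (2.27), Perp (2.23) and Psrc1 (2.11). It was higher by less for Rgs1 (1.76), Cdkn1a (1.67), S1pr1 (1.53), Apoe (1.43), Ypel3 (0.87) and Crabp2 (0.70). A gene that fell less in KO, such as S1pr1, Apoe or Ypel3, is also counted as higher.

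The KO response was the lower for Iigp1 (-3.94), Pf4 (-3.93), Mt1 (-3.33), Ly6c1 (-3.20), Ifitm2 (-3.13), Ly6a (-3.09), Gbp2 (-2.89), mt-Tq (-2.83), Igtp (-2.79), Calhm6 (-1.63), Ifit3 (-1.60), Pik3ip1 (-0.71), Ifit1bl1 (-0.68), Fam189b (-0.67) and Ltb (-0.59). For Iigp1, Ly6c1, Ly6a, Ifitm2, Pf4 and Gbp2 the unstimulated KO libraries were above every unstimulated WT library. Some of these calls were lost in alternatives: that of Ifit1bl1 in 9 of 23 (values of -0.84 to -0.20, adjusted p up to 0.722), those of Apoe and Ypel3 in 5 each, those of Crabp2 and Pik3ip1 in 2 each, and those of Cdkn1a and Psrc1 in 1 each, with Cdkn1a changing sign in 1 more.

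By list, the number of tested members whose difference was called in either direction was as follows, first where more of the called members were higher in KO: activation transcription factors (12 of 24), signalling feedback (15 of 20), cytokines (7 of 10), chemokines (4 of 9), TNF family ligands (4 of 7), inhibitory receptors (5 of 10), quiescence and FOXO (19 of 25), trafficking receptors (11 of 17), T cell receptor complex and proximal (11 of 24), PI3K, AKT and mTOR (2 of 6), mitochondrial transcripts (1 of 13), p53 targets (14 of 15), BCL2 family (5 of 11), B cell markers (5 of 10) and MHC class II markers (6 of 8). More of the called members were lower in KO for activation receptors (6 of 15), effector fate factors (5 of 7), glycolysis (15 of 18), amino acid and one carbon (6 of 13), cholesterol synthesis (14 of 21), fatty acid synthesis (2 of 8), nucleotide synthesis (5 of 21), ribosome biogenesis (3 of 38), DNA replication (5 of 29), mitosis (9 of 22), proteasome (8 of 35), chaperones (9 of 27), respiratory chain (5 of 58), type I interferon response (9 of 16), interferon gamma response (16 of 17), myeloid dendritic markers (4 of 6), NK cell markers (3 of 3) and erythroid platelet markers (1 of 3). Equal in both directions were cytotoxic granule (8 of 12) and CD8 T cell markers (6 of 11). The shares over all genes tested were 15.7% higher and 9.6% lower. Ribosome biogenesis and the respiratory chain lie below that share of lower calls, and leaving out single compared libraries gave 3 to 7 and 2 to 6 lower, or 8 and 19 without WT stimulated plus inhibitor replicate 2. Without that library the lower calls also became 12 for DNA replication, 16 for chaperones and 15 for the proteasome. Leaving out any one of 8 of the 12 compared libraries moved the lower calls of amino acid and one carbon genes from 4 to 2, and any one of 10 those of myeloid dendritic markers from 3 to 1. Without WT stimulated replicate 3 the lower calls of NK cell markers went from 3 to 1 and the higher calls of the T cell receptor list from 8 to 5. Without KO unstimulated replicate 1 the higher calls of B cell markers went from 5 to 8. No cause of any of these differences was tested.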

How the results depend on the processing

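The numbers of genes called moved with the number tested and, for the difference, also with single libraries. From 7025 in KO, 7558 in WT and 2595 for the difference, they became 11430, 12251 and 4123 with no filter, 4050, 4267 and 1429 with a filter of 5, and 11202, 12063 and 4173 by recovered reads. Protein-coding genes alone gave 4514 in KO and 4593 in WT. Without WT stimulated plus inhibitor replicate 2, an outlying library, the difference was called in 3882 genes. In that fit its members were lower in KO for 16 glycolysis, 17 interferon gamma response and 19 respiratory chain genes, and higher for 15 p53 targets, 18 quiescence and 15 signalling feedback genes. Leaving out single compared libraries gave 6486 to 6808, 7066 to 7356 and 1965 to 2823. The replicate block, by replicate number, gave 6975, 7571 and 2486 and changed the direction of none of these counts. Same-numbered libraries of a genotype also share a letter in their names, whose meaning is not given. Their deviations correlated at 0.0638, -0.0239 and -0.0302 in KO and at 0.121, 0.00912 and 0.0787 in WT, and not every library correlated best with its own number, so they were not treated as pairs.

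Of the KO log2 fold changes of named genes under all alternatives, 2617 kept direction and call, 11 lost and 1 gained the call and 4 changed sign; of the differences, 835 kept both, 25 lost and 6 gained the call and 5 changed sign. 7SK in KO, at -0.0077, became 0.0011 with a pseudocount of 0.1, and leaving out single libraries gave -0.39 to 0.32. With a pseudocount of 0.1 the differences of Ccl3, Ifng and Cdkn1a became -0.37, -0.45 and -0.0014, and with one of 4 that of Ccl4 became 0.015; leaving out single libraries gave -1.33 to 0.62, the last without KO unstimulated replicate 2. The difference of Pik3ip1 was no longer called with a pseudocount of 0.1 (-0.31, adjusted p = 0.136) or by recovered reads (-0.29, adjusted p = 0.172). The cytokine list's median difference went from 0.81 to -0.16 by recovered reads. The cause was not tested. Low genes with a handful of recovered reads set the limit of depth.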

Other observations

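Some list members were under the main filter and could be tested only by recovered reads per 1e6 (RPM), with at least 10 reads in 3 libraries. Ccl1, the ligand of CCR8, was at 0.140, 0 and 0.176 RPM in the unstimulated and 142, 138 and 101 in the stimulated libraries labelled KO, and at 0, 0.701 and 0 and 0, 0.445 and 0 in WT. Only stimulated KO libraries were above 1, and the responses differed by 6.92 (SE 0.35, adjusted p = 1.5e-09) on the log2 scale. Il21, the gene of the T cell cytokine IL-21, had 4.75, 9.79 and 8.54 RPM in stimulated KO and 8.49, 10.1 and 6.46 in stimulated WT libraries, so the genotypes overlapped. Havcr2, which encodes TIM-3, rose from 1.03, 1.59 and 1.88 to 6.52, 5.03 and 5.44 in KO, and its WT values were 2.41, 0.0539 and 0 and 0.342, 0.243 and 0.191.

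Granzymes of low level differed among themselves. Gzmf went from 0 reads to 3.66, 3.09 and 3.21 RPM in KO, while Gzmk fell from 40.4, 42.8 and 26.5 to 3.26, 3.75 and 2.96 and Gzmm from 5.05, 4.88 and 4.82 to 0.617, 0.475 and 0.632. Bcl6, a factor of memory precursors, fell from 17.2, 19.6 and 15.3 to 1.59, 1.33 and 0.826, and Bcl2, the survival gene, from 167, 161 and 151 to 67.6, 91.1 and 84.0, while its WT values were 109, 132 and 104 and 122, 117 and 125, a difference of -1.07 (SE 0.21, adjusted p = 0.0014). These genes were chosen after their values were seen.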
